A study of Homo sapiens with 42 samples.

Results

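HCT116 is an established human colorectal adenocarcinoma line, labelled wild type. Its 6 samples, out of 42 in the series, were chosen as those whose sample names begin with HCT116. In 3 of them the cells had been exposed for 4 h to FHT-1015, a small molecule that blocks the ATPases SMARCA4 and SMARCA2, and 3 negative control samples of the same 4 h had received the solvent DMSO. The labels call the samples biological replicates, and they give no concentration of FHT-1015. Where nothing ties replicates to separate cultures, p-values measure the spread between these samples only. ATAC-seq was read out as a list of peaks per sample, a peak being a stretch of DNA where a transposase could insert and reads pile up. The other 36 samples are 6 further cancer lines treated in the same way: 92-1, 22RV1, RD, A375, DU4475 and MV411.

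BAF complexes use the energy of ATP, through SMARCA4 or SMARCA2, to slide and evict nucleosomes, and are known above all for keeping enhancers open. Transcription factors such as AP-1 dimers (JUN and FOS proteins) bind at many of these enhancers and work together with BAF complexes. Promoters of widely expressed genes, often rich in CpG, are in general less dependent on them. In the intestine CDX2 is the master factor of epithelial identity, and ASCL2 is a WNT target of the stem cells at the base of the crypt.

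Sequences are shown for promoters that changed, since there the letters can be set beside the peaks. A promoter was the window from 250 bases before to 50 bases after the start of a protein-coding gene (22011 windows, RefSeq, GRCh38.p14). A promoter was lost if each DMSO sample had a summit in it among its 50000 strongest peaks while no FHT-1015 sample had a summit of that strength within 500 bases of the start. Gained promoters were defined with the groups exchanged. Lost promoters were 10 of the 6657 held by all 3 DMSO samples (0.15%), and gained ones were 31 of the 7217 held by all 3 FHT-1015 samples (0.43%). The AP-1 motif TGANTCA, searched on both strands, was in 4 of the 10 lost promoters (40%), in 2 of the 31 gained (6.45%), in 3.01% of the 5814 held by all 6 samples and in 6.16% of all windows. It was picked from a wider search, which also took in CRE, TEAD, TATA box, CCAAT box, ETS, NRF1, GC box, TCF/LEF, CDX, HNF4 and E-box motifs. These shares rest on few promoters and were not tested. Sequence is given as the 250 bases before the start, 5′ to 3′ on the strand of the gene, for the 3 lost promoters with an AP-1 match in that stretch, with the match in capitals. In the other one, SH3BP4, the match lay after the start.
BCAR1, chr16:75268008-75268257, minus strand: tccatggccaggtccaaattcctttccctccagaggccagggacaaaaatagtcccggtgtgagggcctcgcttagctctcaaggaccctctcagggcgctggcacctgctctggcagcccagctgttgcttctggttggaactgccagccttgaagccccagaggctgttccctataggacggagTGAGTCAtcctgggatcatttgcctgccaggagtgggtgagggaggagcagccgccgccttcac
SPINK13, chr5:148268544-148268793, plus strand: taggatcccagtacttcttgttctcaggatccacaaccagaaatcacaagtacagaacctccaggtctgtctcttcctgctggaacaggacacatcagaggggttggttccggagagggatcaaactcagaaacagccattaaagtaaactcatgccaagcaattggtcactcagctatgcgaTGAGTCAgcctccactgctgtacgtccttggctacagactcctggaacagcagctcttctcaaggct
TTC39C, chr18:24113077-24113326, plus strand: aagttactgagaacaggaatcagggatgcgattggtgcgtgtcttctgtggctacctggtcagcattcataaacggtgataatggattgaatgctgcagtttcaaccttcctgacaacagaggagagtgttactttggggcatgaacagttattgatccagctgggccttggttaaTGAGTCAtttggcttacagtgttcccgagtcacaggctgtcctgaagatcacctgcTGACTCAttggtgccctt
The matches began 64, 67 and 74 bases before the start, and TTC39C held a further one 18 bases before it. BCAR1 encodes the adhesion adaptor p130Cas. Its peak ranked 46744, 22300 and 12850 in the DMSO samples, rank 1 being the strongest peak of a sample, and no FHT-1015 list had a summit within 500 bases of the start. The TTC39C peak ranked 6952, 10101 and 10737 with DMSO and 71578 and 61370 in 2 FHT-1015 samples, the other having none in the window. The SPINK13 peak, at a protease inhibitor gene, ranked 16926, 27415 and 34246 with DMSO, and 1 FHT-1015 sample had a peak in the window, at 85957. The SH3BP4 peak ranked 13913, 7048 and 4629 with DMSO and in 1 FHT-1015 sample at 121330, and all 3 FHT-1015 lists had a weaker summit within 500 bases. In these 4 promoters the groups of ranks did not overlap, as the choice of promoters requires.

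The 2 gained promoters whose weakest FHT-1015 peak ranked best are shown for contrast, with matches to the AP-1 motif and to the ETS, E-box, CCAAT box and CRE motifs in capitals. These were searched on both strands. The letters were CCGGAA for ETS, found in 21.1% of all windows. For the E-box they were CACGTG, found in 8.32%. For the CCAAT box they were CCAAT, found in 34.7%. The CRE is TGACGTCA, found in 2.25%.
CCDC57, chr17:82212843-82213092, minus strand: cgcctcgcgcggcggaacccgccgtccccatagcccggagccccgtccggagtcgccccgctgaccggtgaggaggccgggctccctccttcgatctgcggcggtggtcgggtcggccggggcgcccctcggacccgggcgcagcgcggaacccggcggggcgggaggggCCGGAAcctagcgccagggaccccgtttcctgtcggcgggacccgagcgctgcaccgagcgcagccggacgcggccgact
ELOVL5, chr6:53348951-53349200, minus strand: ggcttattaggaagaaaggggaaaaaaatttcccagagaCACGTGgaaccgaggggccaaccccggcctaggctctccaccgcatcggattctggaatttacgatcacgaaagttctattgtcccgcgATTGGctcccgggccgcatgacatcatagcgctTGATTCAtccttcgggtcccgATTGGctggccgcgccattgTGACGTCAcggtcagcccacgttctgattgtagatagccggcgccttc
The stretch at CCDC57 was 79.2% G and C and that at ELOVL5, which encodes a fatty acid elongase, 56%, against 47.6% to 60.4% in the 3 lost promoters shown. The CCDC57 peak ranked 10488, 10078 and 10921 with FHT-1015, and 88728 and 172516 in 2 DMSO samples, the other having none in the window. The ELOVL5 peak ranked 15991, 12930 and 10163 with FHT-1015, and no DMSO sample had one in the window, though 2 had a weaker summit within 500 bases. The median window of the lost promoters held 12 CpG dinucleotides and that of the gained ones 26, against 29 in those held by all 6 samples and 21 in all windows. Of the 31 gained promoters 22.6% held an E-box, 19.4% an NRF1 motif (7.35% of all windows) and 6.45% an ETS motif. In the 7217 promoters held by all 3 FHT-1015 samples these shares were 11.2%, 15.1% and 34.4%. Such matches are letters in a window, and binding was not measured.

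Each sample had its own deposited list, of 122344, 267413 and 224200 peaks with DMSO and of 114291, 149202 and 313558 with FHT-1015 on chromosomes 1 to 22 and X. Read numbers are unknown. A background pileup recovered from the fold and p-value of the peaks, used as a stand-in for relative depth, was 0.157 to 0.281 with DMSO and 0.159 to 0.319 with FHT-1015. FHT-1015 replicate 3 stood apart, with the longest list and the fewest strict peaks (−log10 q of at least 5), at 17552 against 22667 to 27364 in the other 5. The colorectal markers were only weakly open. The strongest peak at the start of CDX2 ranked 27354, 116608 and 12169 with DMSO and 28562, 32262 and 252157 with FHT-1015, and the one at either end of ASCL2 ranked 27202 and 139847 in 2 DMSO samples, with none in the other, and 77050, 86769 and 251446 with FHT-1015. Of the 26 marker genes of melanocytes, skeletal muscle, myeloid cells and prostate, 5 had a peak within rank 20000 at a start or end in all 6 samples (MITF, DCT, MYOD1 and CIITA among them), and SOX10, PAX3 and MLANA had none in any list. The peak counted for CIITA lay at the start of its neighbour DEXI. Such markers said little in the other lines too: within rank 20000 in all 3 DMSO samples of their own line were 1 of 7 melanocyte markers in A375 and 0 of 7 myeloid markers in MV411.

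The first question was which places open in the control cells were closed after FHT-1015, and the reverse. Few regions changed in every replicate, and those that were lost lay away from gene ends. Regions were windows of 500 bp around summits. A sample held a region if one of its peaks covered 100 bp or more of it. Of the 29657 regions held by all 3 DMSO samples, 1904 were held by no FHT-1015 sample (lost, 6.42%), and of the 26332 held by all 3 FHT-1015 samples, 804 were held by no DMSO sample (gained, 3.05%). All 6 samples held 19740 regions. Held by 3 samples of mixed treatment were 9883 regions with 2 DMSO and 1 FHT-1015 sample and 8179 with 1 and 2. Each kind is spread over 9 combinations of samples. On average a mixed combination thus held more regions than the 804 gained and fewer than the 1904 lost. The lost peaks were weak: the median −log10 q in the DMSO samples was 2.61, against 9.85 in the regions held by all 6 samples. Of the gained regions it was 2.32 with FHT-1015, against 10.7. A strict peak overlapped 87 lost and 19 gained regions in all 3 samples of the group, and its summit lay inside the region in all 3 for 78 and 7. A peak of the other group lay within 250 bp of 497 lost (26.1%) and 259 gained regions (32.2%), which leaves 1407 and 545. With 1 sample fewer both counts were higher, up to 12738 lost without DMSO replicate 1 and 8165 gained without FHT-1015 replicate 1. They were 2746 and 3536 without FHT-1015 replicate 3. No single region could pass a test on 3 against 3 calls, where the smallest exact p is 0.1.

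Lost regions were far from gene ends. Of the 1904, 119 (6.25%) lay within 1 kb of an end of a protein-coding gene, against 126 of the 804 gained regions (15.7%) and 9435 of the 19740 held by all 6 samples (47.8%). The median distance to the nearest gene end was 31.4 kb for lost, 22.1 kb for gained and 1.52 kb for shared regions. Inside the span of a gene lay 52.5% of the lost, 50% of the gained and 40.7% of the shared regions. Other weak regions were also far from gene ends. Regions held by any 3 of the 6 samples, in whatever combination, had a median −log10 q of 2.36 with DMSO. Of these 20770, 10.3% lay within 1 kb of a gene end. Of the 703419 regions held by any HCT116 sample 5.18% lay there, at a median distance of 46.1 kb. Lost regions were thus no farther from gene ends than regions at large. With strict lists, 53 of 730 lost (7.26%) and 107 of 248 gained regions (43.1%) lay there, against 62.9% of the regions held by all 6.

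**Figure D1:**
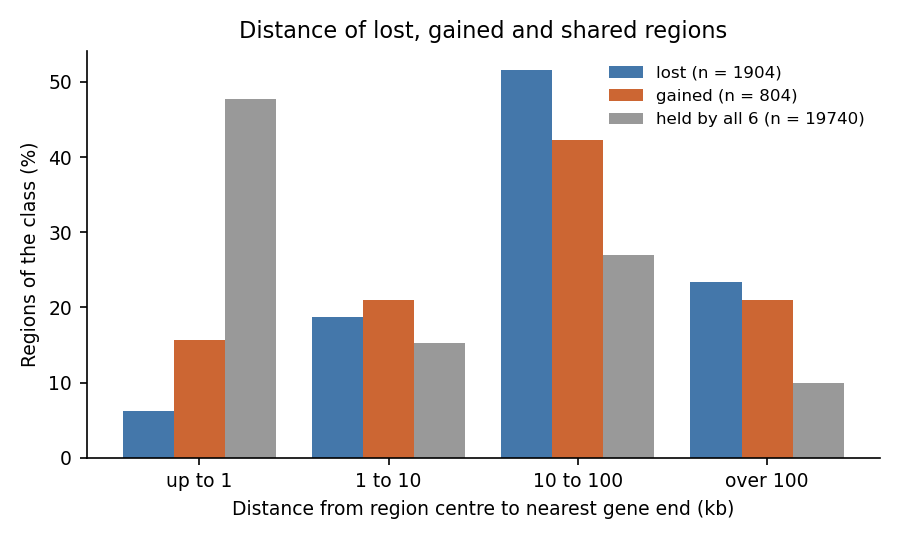
Percent of lost, gained and shared HCT116 regions (y axis) by the distance from the region's centre to the nearest end of a protein-coding gene in kb (x axis); bars are counts over regions and have no error. Regions held by all 6 samples are most frequent within 1 kb (47.8%), lost regions between 10 and 100 kb (51.6%).

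The 12 lost regions with the strongest peaks in their weakest DMSO sample had HHAT, HMCN1, DHRS3, GCNT2, SLC22A3, EPB41L2, BHLHE40, LYSMD2, GDF6, STAU2, BRINP3 and ERI3 as the nearest gene, which need not be the gene they act on. Near HMCN1 (chr1:186236872-186237371, outside genes, 46173 bp from its end), a gene of an extracellular matrix protein, the authors' fold over background was 13.8, 8.63 and 9.15 in the DMSO samples. No FHT-1015 list had a peak within 250 bp. At chr6:10633215-10633714, outside and 4097 bp from GCNT2, which encodes an enzyme that branches blood group I sugar chains, the fold was 10.2, 11.5 and 8.27 with DMSO and no FHT-1015 peak lay nearby. At chr6:160391280-160391779 inside SLC22A3, an organic cation transporter gene, it was 9.13, 9.69 and 7.27. At chr3:5013157-5013656, outside and 28084 bp from BHLHE40, a transcriptional repressor of the circadian system, it was 14.4, 15.4 and 7.37, and 1 FHT-1015 sample had a peak within 250 bp. The region inside HHAT, the palmitoyl transferase of hedgehog proteins, led the list with 12.2, 10.7 and 10.1, yet all 3 FHT-1015 samples had a peak within 250 bp. Inside DHRS3, which reduces retinal, the fold was 11.8, 7.77 and 11.9. Each of the 12 lay more than 1 kb from gene ends. Those of HHAT, DHRS3, SLC22A3, EPB41L2, LYSMD2, STAU2 and ERI3 lay inside the gene named. With an overlap of at least 250 bp only those of HHAT, STAU2 and ERI3 were still held by 3 DMSO and 0 FHT-1015 samples, and BRINP3 had no difference. The median peak width averaged 211 bp with DMSO and 210 bp with FHT-1015. Most peaks are thus too short for that overlap, whatever the treatment.

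Gained regions were weaker, with a lowest percentile of 81.8 to 87.3 among the peaks of their sample, against 92.7 to 96.4 for these lost ones. The 12 strongest had TEX13A, NKD1, FRMD8, BARD1, COL1A2, CT45A1, LOC124900389, LOC110384692, H2AC7, PTPRR, EVA1A and VAV3 as nearest genes. Those of NKD1, COL1A2, CT45A1, LOC110384692, H2AC7 and VAV3 lay within 1 kb of a gene end. At chr16:50547269-50547768, 877 bp from an end of NKD1, a WNT feedback inhibitor, the authors' fold was 6.98, 6.51 and 5.79 in the FHT-1015 samples. At chr7:94395343-94395842, inside COL1A2, a collagen I gene, and 698 bp from its end, it was 12.8, 5.87 and 5.19. At chr12:70733325-70733824 inside PTPRR, a phosphatase of MAP kinases, it was 13.2, 5.65 and 7.04. No DMSO list had a peak within 250 bp of these 3. Near H2AC7, a histone gene of the large cluster, a DMSO sample had a peak within 250 bp, and the fold with FHT-1015 was 7.75, 5.90 and 4.95. With an overlap of at least 250 bp only the region near H2AC7 was still held by 3 FHT-1015 and 0 DMSO samples, and BARD1 had no difference. Most peaks are too short for that overlap. With strict peaks those of TEX13A, BARD1, COL1A2, CT45A1, LOC110384692, H2AC7 and EVA1A were no longer held by 3 against 0 samples.

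Choosing regions by 3 against 3 calls fixes their direction, so the regions were also chosen on 2 DMSO and 2 FHT-1015 samples and read in the pair left out, over the 9 such pairs. With the 50000 strongest peaks of each sample, which makes the lists equally long, regions chosen as lost were held by 51.9% of left-out DMSO and 28.2% of left-out FHT-1015 samples on average. The difference of 23.7 percentage points ranged from 13.9 to 33.4, with DMSO higher in 9 of 9. With the full lists it was 9.19 points (−1.39 to 17.1, DMSO higher in 8 of 9). Regions chosen as gained were held by 37.0% of left-out DMSO and 39.2% of left-out FHT-1015 samples. Here the difference of −2.20 points ranged from −12.6 to 8.71, with FHT-1015 higher in 6 of 9. With the full lists it was 0.78 points, with DMSO higher in 6 of 9. The direction of loss thus carried over to samples that did not choose the regions, and that of gain depended on the lists and on the sample left out. With the 50000 strongest peaks and FHT-1015 replicate 3 left out, the gained difference was 4.84 to 8.71 points, with DMSO higher. With another FHT-1015 sample left out it was −12.6 to −3.55. The lost difference was 28.0 to 33.4 points with replicate 3 left out and 13.9 to 24.5 otherwise. The 9 pairs share samples, so no p-value is given.

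**Figure D2:**
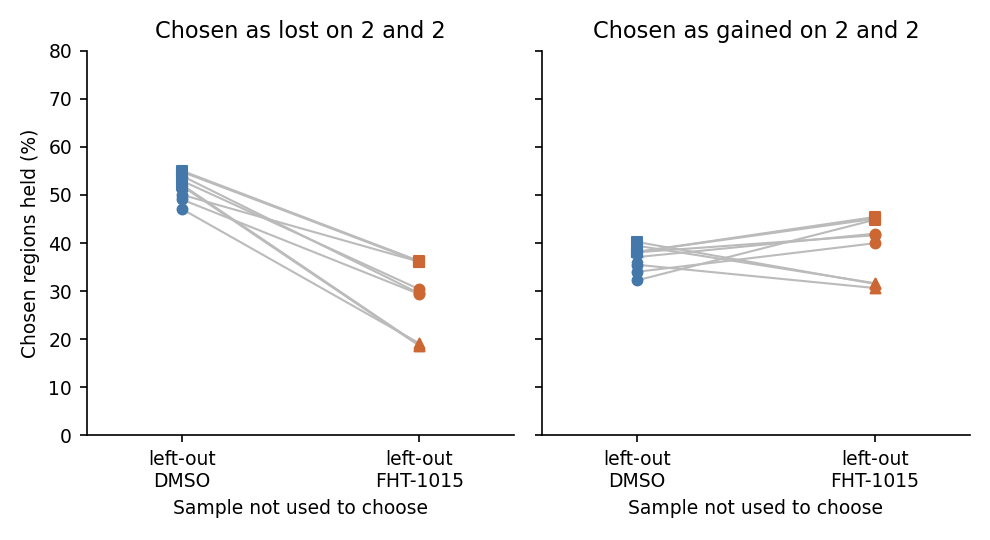
Percent of regions held (y axis) by the DMSO and the FHT-1015 sample left out (x axis) after choosing lost (left) or gained (right) regions on the other 2 and 2 samples, with the 50000 strongest peaks of each; lines join the 9 pairs and the marker shape is the replicate number (circle 1, square 2, triangle 3). Lost regions lie between 47.1% and 55.1% for DMSO and between 18.6% and 36.2% for FHT-1015, while the groups overlap for gained regions.

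The strongest peaks were nearer to genes with FHT-1015. Of the 10000 strongest peaks of each sample, 51.1%, 53.0% and 53.1% lay within 1 kb of a gene end with DMSO and 59.1%, 59.5% and 60.9% with FHT-1015. The groups did not overlap. The means were 52.4% ± 1.14 and 59.8% ± 0.98 (SD, n = 3), a difference of 7.39 percentage points (exact permutation test, two-sided, p = 0.1, the smallest that 3 against 3 can give, adjusted p = 0.2 over 4 measures). The share within 1 kb of a gene start was 46.5%, 48.5% and 48.4% with DMSO and 53.8%, 54.4% and 55.9% with FHT-1015. In the 20000 strongest peaks the groups lay at 40.2% to 43.2% and 46.0% to 46.7%. In the 50000 strongest they overlapped, at 22.9% to 26.0% and 25.3% to 26.8%. The lengths of the lists overlapped: the log2 number of peaks differed by −0.15 (exact p = 0.9) and that of strict peaks by −0.10 (exact p = 0.8). The Jaccard index of strict regions, the shared part of 2 lists, was 0.473 on average for pairs within a treatment and 0.450 for pairs across (difference 0.0226, exact permutation test, p = 0.1).

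**Figure D3:**
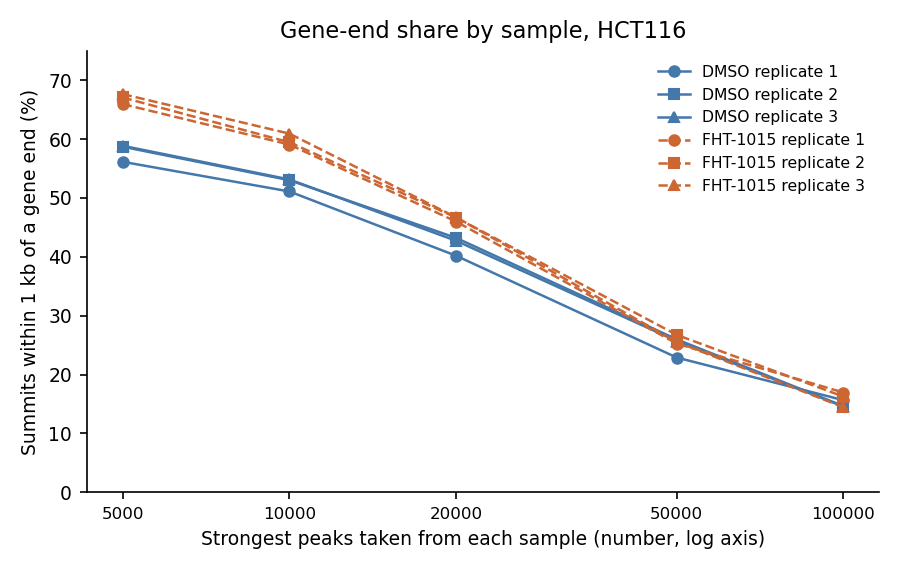
Share of summits within 1 kb of an end of a protein-coding gene (y axis, percent) among the strongest peaks of each sample (x axis, number of peaks, log axis); 1 line per sample. FHT-1015 lies above DMSO in all samples up to 20000 peaks (46.0% to 46.7% against 40.2% to 43.2%) and the lines mix from 50000.

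A rank test asked which single regions moved. The 100000 strongest peaks of each sample were ranked, regions within rank 20000 in at least 3 samples were kept (17813), and the log2 of rank plus 100 was compared with limma. Samples lacking a region in these lists all received the same rank, just beyond 100000. A region could pass the filter on the ranks of 1 group alone. A region fell when its rank number was higher with FHT-1015. At an adjusted p under 0.05, 32 regions fell (0.18% of those tested) and 1 rose (0.00561%), and at an unadjusted p under 0.05 there were 1221 and 685. The groups of ranks did not overlap in 1530 regions that were lower with FHT-1015 (8.59%) and 1354 that were higher (7.6%). Of the former 18.0% and of the latter 61.6% lay within 1 kb of a gene end, against 46.7% of all tested. Where labels can be exchanged, ranks of 3 and 3 samples do not overlap, in either direction, with a probability of at most 0.1. Ranks are relative: the median log2 rank difference was −0.26 at gene ends and 0.13 elsewhere. The number of calls moved with each choice of the test, from 0 to 172 regions that fell, and was 7 without FHT-1015 replicate 3, 8 without FHT-1015 replicate 2, 20 without FHT-1015 replicate 1, 1 without DMSO replicate 3 and 0 without DMSO replicate 1 or 2.

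The regions that fell were mostly distal, with 1 of 32 within 1 kb of a gene end and a median distance of 33.0 kb to one. Another, inside KCNMA1, lay 286925 bp from an end of the gene span but 122 bp from an annotated start of that gene. Of the 32, 12 stayed among the 100000 strongest peaks of all 3 FHT-1015 samples. In 2, nearest to ADCY8 and BHLHE40, all 3 FHT-1015 samples were beyond rank 100000 and had equal values, so that group had no spread. Others, such as those at PXDN, ELK3 and KLHL29, passed the filter on their DMSO ranks alone. The limma p-values of such regions depend in part on the filter and on the rank given to missing regions. The lowest p belonged to chr10:128629333-128629832, outside genes and 503160 bp from MKI67, the gene of the proliferation antigen Ki-67. It ranked 377, 419 and 896 with DMSO and 26883, 17794 and 12337 with FHT-1015 (log2 rank difference 4.86 ± 0.59 SE, limma adjusted p = 0.0147). Near PXDN, which encodes the matrix enzyme peroxidasin (chr2:1593756-1594255), ranks went from 808, 1246 and 1665 to 53602 and 34645, and the region was beyond rank 100000 in FHT-1015 replicate 3 (5.47 ± 0.68 SE, limma adjusted p = 0.0147). Both regions still had a peak in all 3 full FHT-1015 lists, so they weakened and were not lost by the count above.

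Inside ELK3, an ETS family repressor gene (chr12:96219731-96220230), the ranks were 2530, 895 and 1365 with DMSO and 26204, 79499 and beyond 100000 with FHT-1015 (limma adjusted p = 0.0243). A region 92202 bp from C17orf67 (chr17:56699461-56699960) moved evenly, from 838, 483 and 745 to 7916, 6734 and 7104 (3.25 ± 0.47 SE, limma adjusted p = 0.0259). Near ZNF608, a zinc finger gene (chr5:124628996-124629495), ranks of 439, 1024 and 1053 became 13396, 9578 and 12271. In each of these regions the 2 groups were far apart, which the choice by the rank test favours. Within ST14, which encodes the epithelial protease matriptase, they were 620, 1250 and 2353 with DMSO and 29616, 13218 and beyond 100000 with FHT-1015. At chr2:216637066-216637565 inside IGFBP2, a binding protein of insulin-like growth factors, they were 6021, 1358 and 7584, then 67946 and beyond 100000 in the other FHT-1015 samples. The region near BHLHE40 described above was also among the 32, at 2048, 2112 and 13629 with DMSO and beyond 100000 in all 3 FHT-1015 samples. The only one at a gene end lay 45 bp from PYROXD2, inside HPS1, with 531, 691 and 1005 against 7390, 5327 and 5961. The differences of the 32 ran from 1.63, at a region 214026 bp from USP24, to 5.47 at PXDN.

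**Figure D4:**
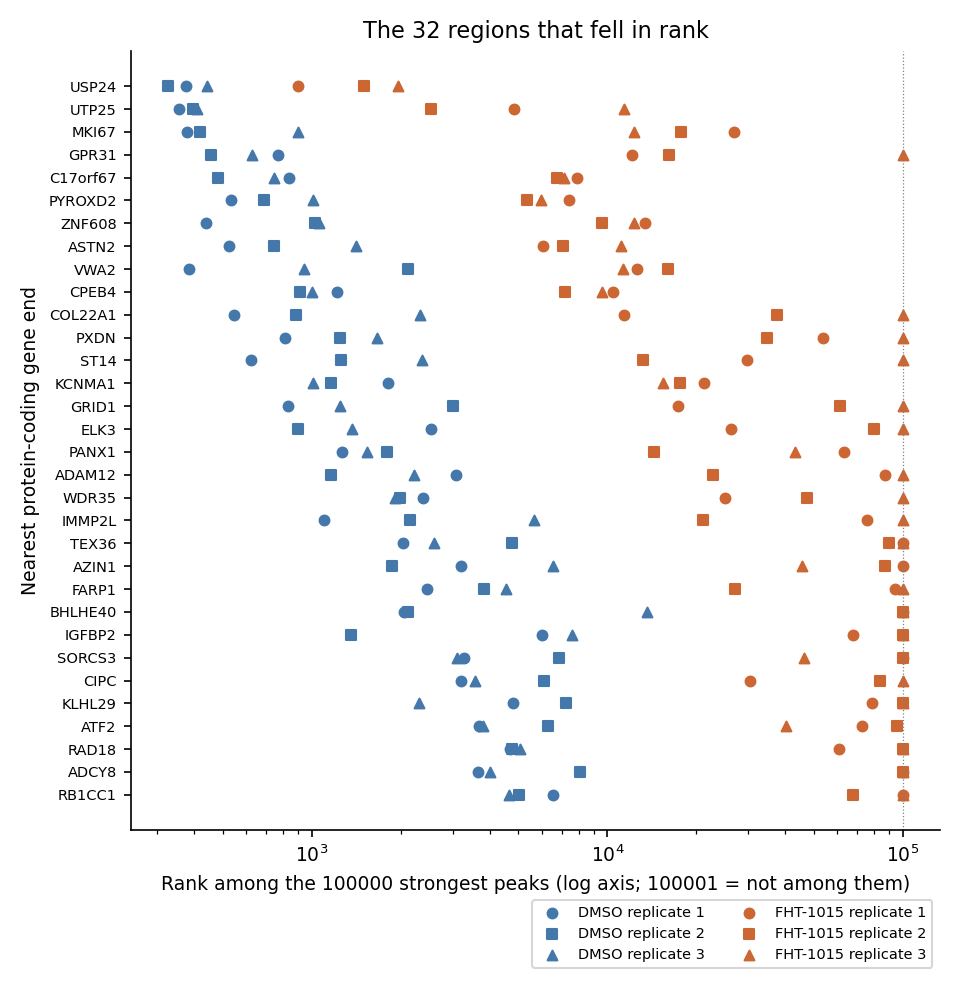
Rank among the 100000 strongest peaks of a sample (x axis, log axis, the rightmost position standing for not among them) of the 32 regions that fell, by the nearest gene (y axis); colour is the treatment and marker shape the replicate. Every DMSO rank of a region lies to the left of its FHT-1015 ranks, as at MKI67 (377 to 896 against 12337 to 26883). FHT-1015 samples often lie at the rightmost position. The regions were chosen by this difference in rank, which favours such a separation.

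The region that rose was at DIAPH3, the gene of an actin-nucleating formin (chr13:60163782-60164281, 104 bp from a gene end), with ranks of 972, 761 and 688 under DMSO and 292, 302 and 413 under FHT-1015 (−1.06 ± 0.18 SE, limma adjusted p = 0.0418). It is a strong peak in all 6 samples, and it did not pass without any 1 of the samples, nor with no trend or an offset of 1. The regions next in order with lower rank numbers under FHT-1015 did not pass (limma adjusted p of 0.102 to 0.168) and were mostly at gene starts, named here after their values were seen. At FTH1, the ferritin heavy chain gene, the rank was 52657 in DMSO replicate 2 and beyond 100000 in the other DMSO samples, against 9676, 7549 and 6032 with FHT-1015. At PNRC1, a nuclear receptor coactivator gene, they were 68503, 18172 and 16211, then 3982, 3618 and 2041. RAN, a GTPase of nuclear transport, went from 2648, 2783 and 2813 to 1084, 504 and 1178. Nucleolin (NCL) had 4640, 2348 and 3440, then 1490, 737 and 771.

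Around gene groups of colorectal biology the share of lost regions was at or below that of all regions. Genes were read with 50 kb on each side. Of the regions held by all 3 DMSO samples, 3 of 71 were lost around intestinal lineage genes (4.23%), 3 of 65 around WNT targets (4.62%), 3 of 109 around YAP and TEAD targets (2.75%), 5 of 85 around genes of the AP-1 family (5.88%), 0 of 58 around MAPK feedback genes, 3 of 103 around epithelial identity genes (2.91%) and 6 of 119 around BAF subunit genes (5.04%), all beside 6.42% of all. In the rank test 0 regions of these lists fell or rose. The ranks did not overlap, lower with FHT-1015, in 12.5% of 32 tested intestinal, 13.5% of 52 YAP and TEAD, 11.1% of 54 epithelial, 8.11% of 37 WNT, 1.92% of 52 AP-1, 6.67% of 30 MAPK feedback and 4.94% of 81 BAF subunit regions, beside 8.59% of all. They did not overlap, higher with FHT-1015, in 12.5% of the intestinal, 7.69% of the YAP and TEAD, 7.41% of the epithelial, 5.41% of the WNT, 9.62% of the AP-1, 3.33% of the MAPK feedback and 8.64% of the BAF subunit regions, beside 7.6% of all. Around markers of other lineages 3 of 19 myeloid (15.8%), 1 of 16 melanocyte, 1 of 16 muscle and 0 of 5 prostate regions were lost.

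Among intestinal genes, CDX1, a relative of CDX2, had 2 lost regions, one inside it (chr5:150181712-150182211) and one inside PDGFRB, its neighbour. CDX2 had none: its start (chr13:27969058-27969557) was held by all 3 DMSO and by 2 FHT-1015 samples. No region around ASCL2 was held by all 3 DMSO samples. The WNT targets EPHB2, a guidance receptor of the crypt, and ZNRF3, a brake on WNT receptors, had 2 and 1 lost regions. LGR5, the stem cell receptor, and NKD1 had 1 gained region each, and TCF7L2, the main WNT effector of the colon, had 2 (4 of 62, 6.45%, beside 3.05% of all). The YAP and TEAD list lost 1 each near CRIM1, WWC1 and RBMS3. Around AP-1 genes lost regions lay near FOSL1, MAFF, MAFK (2) and between BATF and JDP2, and gained ones near FOSL1 and JUNB. Epithelial genes had a lost region near LAMB3, a laminin chain, and near GRHL2, and a gained one near OVOL2. Of the BAF subunits ACTL6B, ARID1A, BCL7A, BRD7, DPF3 and SS18L1 had 1 lost region inside or near them and ARID1B 1 gained. Of the other lineages TYR, the region shared by MYF5 and MYF6, CEBPE, CIITA and CSF1R had a lost region and PAX3 a gained one. The region at CSF1R is also the one counted for CDX1.

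The other 6 lines did not choose the HCT116 regions, so these were tested there as sets, without matching the sets in strength or distance to gene ends. In all 6 the regions lost in HCT116 were held less often with FHT-1015, from 26.7% ± 1.29 to 15.7% ± 2.71 of them in RD, from 45.9% ± 5.59 to 32.7% ± 7.49 in A375 and from 27.7% ± 2.12 to 23.1% ± 2.05 in DU4475 (SD, n = 3). The mean difference was −9.92 percentage points (two-sided p = 1e-05 by permuting labels inside each line, the smallest value 100000 permutation draws can give, adjusted p = 5e-05). Regions gained in HCT116 differed by −2.71 points (permutation p = 0.158, adjusted p = 0.158, lower in 3 of 6 lines), and all regions held by the 3 HCT116 DMSO samples by −7.18 (permutation p = 0.00082, adjusted p = 0.00205). The percent of lost regions held, divided by that of gained regions in the same sample, was lower with FHT-1015 in 6 of 6 lines (log2 difference −0.42, range −0.70 to −0.27, permutation p = 1e-05, adjusted p = 1e-05 over 6 ratios). Against the regions held by all 3 DMSO samples the ratio differed by −0.41, and with strict lists by −1.36 (both p = 1e-05, permutation, lower in 6 of 6). The 32 regions that fell in rank were held less often with FHT-1015 in 6 of 6 lines, with a difference of −13.2 points (permutation p = 1e-05, adjusted p = 2e-05), where all 17813 tested differed by −5.37 (permutation p = 0.0701). Within 1 kb of a gene end lay 6.25% of the lost, 15.7% of the gained and 36.1% of the regions held by all 3 DMSO samples. Of the regions that fell in the other lines, 3.83% (92-1) to 31.6% (DU4475) lay there. Whether other weak distal regions differed as much was not tested. Most lost regions were not lost in another line: 261 of the 1904 were lost in 1 other line, 32 in 2 and 2 in 3. In any given line, only 175 (92-1) to 624 (A375) of the 1904 were held by all 3 DMSO samples and could be lost. The largest share was in 92-1, where 77 of the 175 that its 3 DMSO samples held were lost (44.0%), against 6.31% of the 13159 regions held by the DMSO samples of both lines. Of all regions held by the 3 DMSO samples of 92-1, 35.1% were lost. The share of HCT116 lost regions was above this line-wide share in RD (22.2% against 15.9%), A375 (10.4% against 9.02%) and DU4475 (6.58% against 6.44%). It was below it in 22RV1 (15.5% against 18.0%) and MV411 (14.2% against 19.7%). Of the regions held by the DMSO samples of both HCT116 and the line, 4.17% were lost in RD, 2.00% in 22RV1, 1.94% in MV411, 1.55% in A375 and 1.06% in DU4475. The share of HCT116 lost regions was above this second share in all 6 lines.

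By the shares of regions lost and moved in rank, the response of HCT116 was small beside most of the lines. By strict lists, 730 of 12483 regions held by all 3 DMSO samples were lost in HCT116 (5.85%), against 6.65% in DU4475, 7.49% in A375 and 20.8% to 40.3% in RD, 22RV1, MV411 and 92-1. Gained regions were 2.10% of those held by all 3 FHT-1015 samples, against 0.0687% to 0.791% in the other lines. This order held for strict lists: with the 50000 strongest peaks the gained share of HCT116 was 2.03%, below the 2.20% to 8.70% of 22RV1, 92-1, A375 and MV411, and with the full lists it was 3.05%, where MV411 had 1.62% and the other lines 3.27% to 10.6%. With the 50000 strongest peaks DU4475 had the smaller share of lost regions, 3.91% against 5.64%. In the same rank test 28.6% of regions fell and 28% rose in MV411, 19.7% and 14.2% in 22RV1, 20.1% and 0.163% in 92-1, 8.45% and 2.82% in A375, 5.75% and 0.575% in RD, and 0.143% and 0.015% in DU4475. The strict Jaccard index of HCT116 averaged 0.438 over pairs with FHT-1015 replicate 3 and 0.470 over the other pairs, and in 92-1 2 FHT-1015 samples had only 2037 and 1412 strict peaks. The peak names of RD, A375 and DU4475 lack a word, small, that those of the other 4 lines carry. The background pileup, the stand-in for relative depth, was 0.157 to 0.319 in HCT116. It was 0.532 to 1.02 in 22RV1, 0.606 to 1.35 in A375, 0.817 to 1.65 in RD and 1.41 to 2.79 in DU4475. In MV411 it was 0.260 to 0.495 and in 92-1 0.0341 to 0.430. The part of such samples, of the peak names and of depth in the order of the lines was not tested. Tested against 2 lines, the effect on the log2 number of strict peaks was less negative by 0.64 than in 22RV1 (−0.10 against −0.75, exact permutation p = 0.09) and by 0.98 than in MV411 (−1.08, exact permutation p = 0.065, both adjusted p = 0.18). The gene-end share was higher with FHT-1015 by 7.39 points in HCT116, 13.8 in 22RV1 and 21.6 in MV411, differences of −6.36 (exact permutation p = 0.425, adjusted p = 0.425) and −14.2 points (exact permutation p = 0.135, adjusted p = 0.18). None of the 4 passed, so a smaller effect than in these 2 lines was not shown by these measures. In the lines not tested against HCT116 the gene-end share was higher by 15.2 points in A375, 7.29 in RD, 7.14 in 92-1 and 0.19 in DU4475. The effect in HCT116 thus lay above those of RD, 92-1 and DU4475 by this measure.

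**Figure D5:**
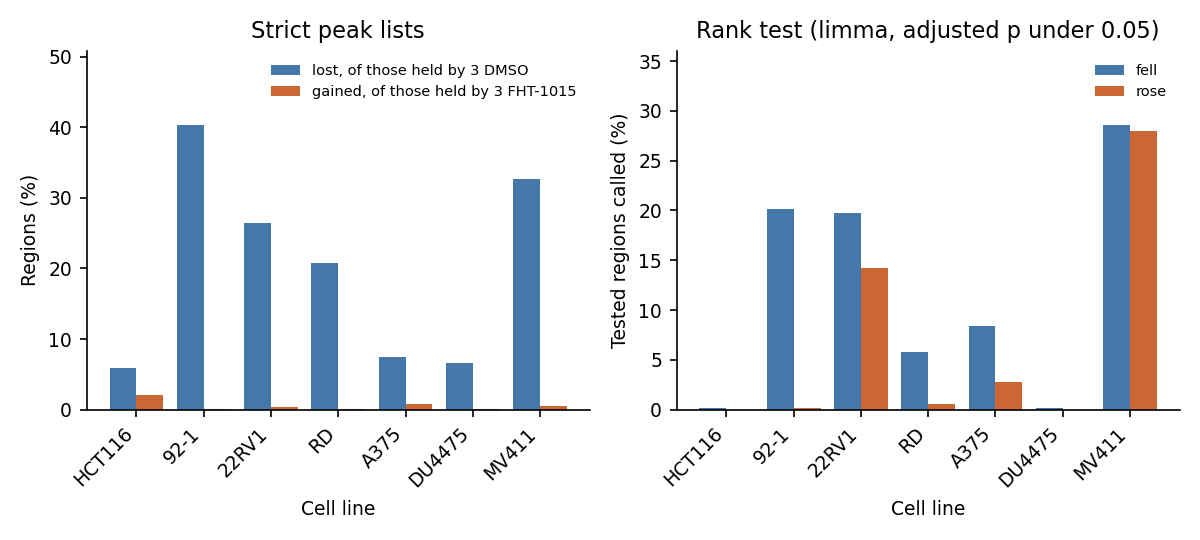
Left, percent of regions lost and gained per line (y axis) with strict peaks; right, percent of tested regions that fell or rose in the rank test (y axis), by cell line (x axis). HCT116 has 5.85% lost and 2.10% gained on the left and 0.18% that fell on the right, near DU4475 at 6.65% and 0.143%; the bars are counts over regions and have no error.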

How the data were processed

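ATAC-seq peak lists of 3 FHT-1015 and 3 DMSO samples of HCT116 were analysed, with 36 samples of 6 other lines for comparison. Per the submitters' processing notes, Bowtie2, Picard, MACS2, limma and HOMER and the build hg38 were used, and neither their roles nor their versions are stated there. The deposited lists give, for each peak, a fold over background (a ratio), p and q on the −log10 scale and a score, which was not used. Peak names carry the word small in HCT116, 92-1, 22RV1 and MV411 but not in RD, A375 and DU4475, which the labels do not explain, so lists of these lines may have been made differently. The values are the authors', per the file's columns, and served only to rank or filter peaks within a list. Equal-length lists (10000, 50000 or 100000 strongest peaks by p) avoid a comparison of lists of different lengths, since weak peaks repeat poorly. Genes and promoters were from RefSeq GRCh38.p14 (19970 protein-coding genes; the gene table has no strand, the promoter table no entry for chromosome 8).

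Windows of 500 bp were picked over all 42 lists from the highest percentile of p downwards without overlap. Sample-level values were compared by exact permutation, other lines by 100000 permutations within lines, and ranks by limma 3.58.1 in R 4.3.3 (eBayes with a trend, Benjamini-Hochberg adjustment); missing regions had rank 100001. On simulated ranks of this comparison (19559 regions) limma recovered 74 of 100 regions moved 16-fold in rank and 7 of 100 moved 4-fold. It made 1 false call. The simulation gave all samples the same normal spread at a given mean rank and held no outlying sample. Its false calls therefore do not give the error rate of the real comparison. The background pileup was solved from fold and p with a tolerance of 0.01.

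Named genes are the nearest to the 12 lost and 12 gained regions with the highest minimum percentile of p over the 3 samples, the list genes with a lost or gained region inside or within 50 kb, and CDX2 and ASCL2. A few list genes that this rule names are not reported here. Regions that fell or rose in rank were added. The members and lists were chosen with earlier results of these data known. The rank test, the promoter classes and the ratios in other lines were added after seeing the data.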

Additional observations from a re-analysis of the deposited data

How the results depend on the processing

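Lost regions were 730 with strict peaks, 1038 with the 50000 strongest, 624 with an overlap of 250 bp and 87 when strict in all 3 samples and absent from the other group, and gained regions 248, 345, 231 and 19. An overlap of 250 bp is longer than most peaks. Windows from the 6 HCT116 lists kept both counts within 1.5 times. Without 1 sample, lost regions ranged from 2746 to 12738 and gained from 1257 to 8165. The held-out difference was 28.7 points for lost regions with strict peaks and 23.7 with the 50000 strongest, and for gained regions it turned to −5.56 and −2.20. The log2 number of peaks ranged from −0.57 to 0.15 without 1 sample, and that of strict peaks from −0.242 to 0.0786, and with −log10 q of at least 10 it was 0.021. The gene-end difference kept its sign, at 6.74 to 7.77 points without 1 sample and 0.989 with 50000 peaks. The Jaccard difference was −0.0026 with deposited peaks. The strict-peak effect against MV411 was 1.25 with −log10 q of at least 10 (exact permutation p = 0.045), and the gene-end effect against 22RV1 0.551 with 50000 peaks.

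The number of regions that fell in rank was 172 with no trend, 0 with an offset of 1000, 56 with a filter at rank 10000, 66 with 50000 peaks and 20 with regions in the lists of all 6 samples, and 0 to 20 without 1 sample. Those that rose were 17, 0, 2, 1 and 2, and 0 to 1 without 1 sample. Of the 32, 32 remained with 50000 peaks, 24 with no trend, 23 with a filter at rank 10000, 11 with regions in the lists of all 6 samples and 0 with an offset of 1000. Without DMSO replicates 1, 2 and 3 in turn 0, 0 and 1 remained, and without FHT-1015 replicates 1, 2 and 3, 15, 7 and 7. The cause of these changes was not tested. None of the regions turned in sign.

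Replicate numbers did not pair the samples: deviations of same-numbered samples correlated by 0.0173, 0.0033 and 0.0028. With a replicate block 63 regions fell and 2 rose, and the block left the 3 list differences at −0.15, −0.10 and 7.39 (smallest p 0.25). Read depth is unknown, which limits all lists of weak peaks.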

Other observations

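Of 28 genes of the BAF complex, 12 had a peak at a start or end within rank 20000 in all 6 samples. The start of SMARCA4 ranked 11368, 6616 and 7645 with DMSO and 7749, 5321 and 3470 with FHT-1015, and that of SMARCA2 1112, 557 and 523, then 2489, 735 and 775, so the groups overlapped at both targets of the inhibitor. ACTL6A, a subunit shared with other remodellers, had the lowest median rank of the 28, read at either gene end (408, 653 and 1142, then 337, 475 and 522).

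Of 15 AP-1 family genes, JUN, FOSL1, FOSL2, JUND and MAFG were within rank 20000 in all 6 samples at a start or end. JUN ranked 1157, 6127 and 2471 with DMSO and 875, 1013 and 4568 with FHT-1015, again with overlap. The share of regions that were lost ran from 3.07% of 1236 on chromosome 19 to 8.16% of 1507 on chromosome 10, and chromosome X had 4.13% of 654.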
